A study of Mus musculus with 2 samples.

Results

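The proteasome subunit genes are the 50 protein-coding mouse genes whose symbol is Psm followed by a letter from a to g and a digit, out of 21755 protein-coding genes on chromosomes 1 to 19 and X in GENCODE mouse release 21. The symbols take in 1 gene that encodes no proteasome component, the meiotic recombination cofactor gene Psmc3ip, and 1 further match, Psme2b. Where the zinc-finger transcription factor GATA4 bound was measured by ChIP-seq (chromatin immunoprecipitation and sequencing) on the whole liver of adult, healthy mice, in 1 group of 2 samples with no treatment, labelled biological replicates 1 and 2. Both replicates carry the same biosample and donor identifiers, so differences between them may be of technical origin, and the labels leave the age unknown and the sex uncollected. The question addressed was which proteasome promoters carried a GATA4 peak, in which peak lists, and whether these promoters differed in that from promoters of like base composition. A promoter was called occupied in a list when a peak summit lay within 1 kb of any annotated start site of the gene. Whole liver mixes hepatocytes with endothelial, stellate and immune cells, and in such a sample binding in few cells and weak binding in many cells cannot be told apart.

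The proteasome degrades proteins that carry ubiquitin chains. Its barrel-shaped 20S core is built from alpha rings, which gate the entry, and beta rings, which hold the proteolytic sites. The 19S regulator caps the core with a ring of ATPases that unfold substrates and with non-ATPase subunits that recognise ubiquitin and remove it. Other activators can replace the 19S cap, immune forms of the catalytic beta subunits replace the standard ones after interferon exposure, and dedicated chaperones assemble both particles without staying in them. Apart from testis, thymus and immune forms the subunit genes are expressed in every tissue, and in mammals the factor NFE2L1 raises subunit genes together through antioxidant response type elements when proteasome activity is inhibited. In the liver, GATA4 is known from the sinusoidal endothelium and from hepatocyte precursors.

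The authors' optimal peak list, made from both replicates, placed a summit at 15 of the 50 proteasome promoters, which is 30% (95% Wilson interval 19.1 to 43.8%). The background over all 21755 genes was 22.6%. The 15 genes encode parts of the core and of the 19S regulator, assembly chaperones, 1 activator and 1 inhibitor, and none of them was an immune or tissue-restricted subunit. By the peak caller's signal score the strongest of these peaks, at the 19S ATPase gene Psmc6, ranked 1696 among the 24050 peaks of the list, and the next, at the structural beta subunit gene Psmb2, ranked 2706. GATA4 recognises the word GATA with A or T before it and A or G after it, a motif written WGATAR in the one-letter code. Of the 15 summits, 4 had such a word within 50 bp on either strand. These 4 windows are printed because they hold the recognition word of the factor that was immunoprecipitated. They come from the GRCm38.p6 sequence, which is mm10, on the strand of the gene, at chr14:45329848-45329948 (plus strand), chr2:151741341-151741441 (minus strand), chr11:70524858-70524958 (plus strand) and chr5:139826637-139826721 (minus strand). Capitals mark the WGATAR match, read from the opposite strand at Psmb6. The Psmg3 window was shortened to leave out untranslated exon sequence.
Psmc6: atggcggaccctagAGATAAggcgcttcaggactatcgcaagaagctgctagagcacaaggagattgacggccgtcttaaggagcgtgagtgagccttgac
Psmf1: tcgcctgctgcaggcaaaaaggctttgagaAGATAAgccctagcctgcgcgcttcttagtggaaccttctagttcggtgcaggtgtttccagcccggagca
Psmb6: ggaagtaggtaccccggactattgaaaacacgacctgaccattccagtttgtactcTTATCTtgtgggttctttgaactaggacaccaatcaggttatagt
Psmg3: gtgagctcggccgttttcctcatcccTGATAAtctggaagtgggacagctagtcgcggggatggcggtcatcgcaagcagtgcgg

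The match at Psmc6 lay 33 bp from the summit and in the first coding exon, just after the start codon that opens the printed window. At Psmf1 it lay 18 bp from the summit, in a window upstream of an alternative start site inside the gene. At Psmb6 it lay 9 bp from the summit and upstream of the gene, and at Psmg3 it lay 6 bp from the summit within the gene. The 3 strongest summits without a WGATAR word within 50 bp were those of Psmb2, Psmc4 and Psmd9. The nearest such word lay 71 bp from the summit at Psmb2, 167 bp at Psmc4 and 106 bp at Psmd9. The Psmd9 window is untranslated exon sequence and is not printed. The windows of Psmb2, at chr4:126677507-126677607 (plus strand), and Psmc4, at chr7:28050126-28050226 (minus strand), show what strong summits without the GATA word held. Capitals mark the matches to the other motifs searched. At Psmb2 this is the ETS word CGGAAA. At Psmc4 the capitals are, from left to right, the opposite strand of the YY1 word AAGATGG, the SP word GGGCGG, and a run that holds the opposite strands of GGGCGG and of the ETS word AGGAAG.
Psmb2: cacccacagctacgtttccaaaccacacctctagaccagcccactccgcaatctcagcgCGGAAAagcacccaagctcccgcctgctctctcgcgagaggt
Psmc4: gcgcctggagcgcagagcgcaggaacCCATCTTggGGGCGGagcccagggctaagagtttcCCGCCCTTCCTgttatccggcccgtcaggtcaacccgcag

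The share of occupied proteasome promoters depended on the list, and only some of the lists put it above promoters of like composition. The other genes were matched on the GC content of 500 bp to each side of the principal start site, in bins of 5 percentage points weighted to the proteasome genes, and separately on the ratio of observed to expected CpG. In the optimal list the 30% of proteasome promoters stood against 26.8% of other genes of like GC, a gap of 3.24 percentage points. The matched share of 26.8% lay inside the Wilson interval of the proteasome share. Against other genes of like CpG ratio, at 30.4%, the gap was -0.426 points. The optimal list therefore gave no difference from matched promoters that exceeded the counting error over genes. In the pooled list of a later run of the authors' processing, of 23696 peaks, 18 promoters had a summit, all 15 included. This is 36.0%, against 26.0% of other genes of like GC, a gap of 10 points. No interval was taken for this share, so the gap is not set against counting error. The Wilson interval treats each gene as 1 count and covers no spread between samples.

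The authors' shorter conservative list had a summit at 4 of the 50 promoters, which is 8% (3.15 to 18.8%), where the background was 4.36%. Other genes of like GC stood at 5.11% and of like CpG ratio at 5.23%, both inside the interval. The 4 genes were Psmc6, Psmb2, Psmd9, which encodes a chaperone of the 19S base, and Psmb6, which encodes the catalytic subunit with caspase-like activity. They ranked 1655, 2584, 6875 and 8028 in a list of 9234 peaks.

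The replicates' own lists differed widely in length, and so did their counts. Replicate 1's list past the authors' threshold held 4287 peaks and placed a summit at 0 of the 50 promoters (0%, interval up to 7.13%), where the background was 1.53%. Other genes of like GC stood at 1.68%, so a list of this length was not able to show a shortfall. Replicate 2's list held 26314 peaks and placed a summit at 26 of the 50 promoters, which is 52% (38.5 to 65.2%), where the background was 27.9%. Here other genes of like GC stood at 33.0%, 19 points lower, and other genes of like CpG ratio at 38.0%, 14.0 points lower. Both lay below the lower bound of the interval. The 2 lists are not alike in length. Cut to the 4287 strongest peaks, replicate 2's list had a summit at 2 proteasome promoters, which is 4.00%, against 4.37% of other genes of like GC. All 15 promoters of the optimal list were among the 26 of replicate 2, and none was past the threshold in replicate 1.

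Each replicate also had a relaxed list of 300000 peaks, deposited as input for the reproducibility analysis, which holds weak peaks and background. The relaxed lists come from an earlier run of the authors' processing than the replicates' thresholded lists. Replicate 1's relaxed list had a summit at 19 of the 50 promoters, which is 38.0% (25.9 to 51.8%), where the background was 28.0%. Other genes of like GC stood at 26.8%, inside the interval, and of like CpG ratio at 29.0%. Replicate 2's relaxed list had a summit at 46 of the 50 promoters, which is 92.0% (81.2 to 96.8%), where the background was 66.6%. Other genes of like GC stood at 75.3%, below the interval, and of like CpG ratio at 82.9%, inside it. All 19 genes listed in replicate 1 were also listed in replicate 2, a further 27 were listed in replicate 2 alone, and 4 were in neither list. The members in neither were Psma8, Psmb5, Psmd10 and Psme2b.

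**Figure D1:**
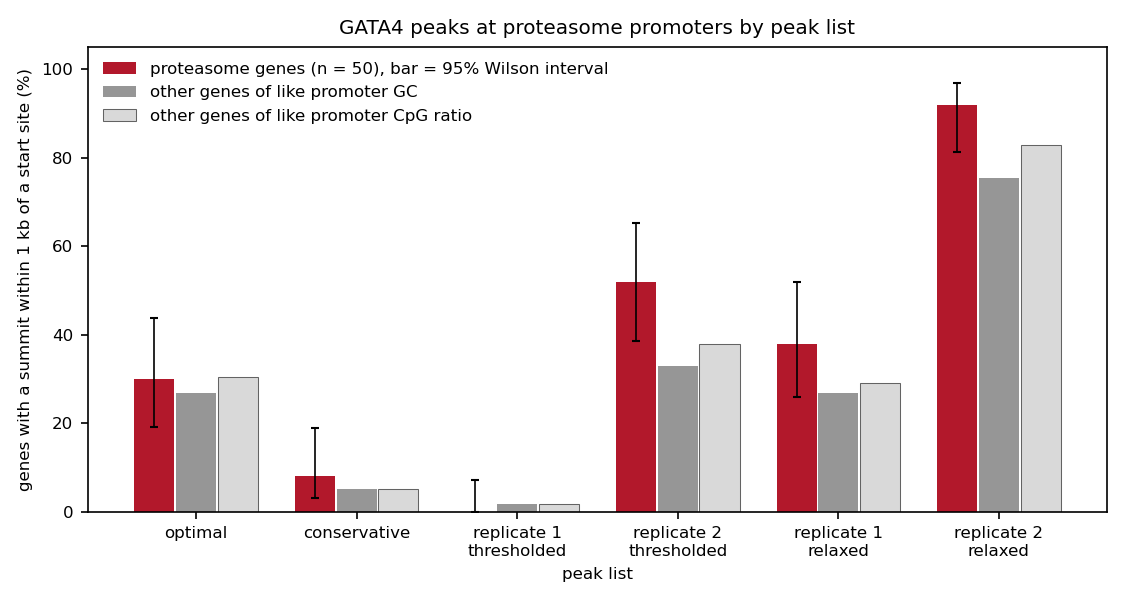
Percentage of genes with a GATA4 peak summit within 1 kb of a start site (y axis) in 6 peak lists (x axis), for the 50 proteasome genes (red, with 95% Wilson intervals over genes) and for other protein-coding genes matched on promoter GC (dark grey) or CpG ratio (light grey). The red bar stands at 30% in the optimal list, close to both grey bars, and at 52% in replicate 2's thresholded list, where both grey bars lie below its interval.

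In the 20S core the optimal list had a summit at 1 of 7 alpha ring and 4 of 7 beta ring genes, and replicate 1's relaxed list at 3 of 7 in each ring. The share over all genes was 22.6% in the optimal list and 28.0% in replicate 1's relaxed list, and the difference between the rings was not tested. Of the 7 constitutive alpha ring genes, Psma6 alone had a peak in the optimal list, and it ranked 12312 with its summit 77 bp upstream of the start site. Here and below, a gene's signal in a replicate is that of the strongest relaxed-list peak within 1 kb of any of its start sites. That peak was not matched to the optimal peak. The signal of Psma6 was 5.08 in replicate 1's relaxed list and 31.6 in replicate 2's. The lowest listed signals there were 4.28 and 4.76 and the highest 104 and 294. Scores have no unit, so they are read against their own list and not between lists. In replicate 1 Psma6 was thus near the floor of the list, at rank 190280, while in replicate 2 it ranked 10539. Psma5 was past the threshold in replicate 2 alone, with a signal of 14.1 there and no peak in replicate 1's relaxed list. The remaining alpha ring genes had peaks that passed no threshold. In replicate 2's relaxed list the signals of Psma2 and Psma7 were above that of Psma5. The thresholded list comes from a later run, so signal and threshold are not read from the same list. In replicate 1, Psma1 had a signal of 7.14 and Psma3 one of 4.93, and Psma2, Psma4 and Psma7 had no peak. In replicate 2 the signals were 14.0 at Psma1, 17.0 at Psma2, 8.31 at Psma3, 8.25 at Psma4 and 14.2 at Psma7. Psma8, which encodes a testis form of an alpha subunit, had a peak in none of the lists.

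Of the 7 constitutive beta ring genes, 4 had a peak in the optimal list. Psmb2 had the strongest, on chromosome 4 at 126677528 to 126677679, with a signal of 78.9 and a summit 73 bp upstream of the start site. Its signal was 14.7 in replicate 1's relaxed list (rank 5021) and 64.7 in replicate 2's (rank 2355), the second highest of the gene group in replicate 2 and the highest in replicate 1. In replicate 1 it carried a reproducibility score of 419, short of the 540 that corresponds to an irreproducible discovery rate (IDR) of 0.05. Psmb1, which encodes a structural beta subunit, had a peak of signal 42.2 and rank 9293 on chromosome 17 at 15499650 to 15500009. That peak lay 79 bp upstream of a start site other than the principal one, and the start site of Tbp, which encodes the TATA-binding protein, was nearer, at 58 bp. Psmb1 had a signal of 35.7 in replicate 2's relaxed list and no peak in replicate 1's.

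Psmb6 differed from the other members in where its summit lay. Its peak on chromosome 11 at 70524728 to 70525087 had a signal of 37.1, ranked 11375 and lay 478 bp upstream of the start site, the greatest distance among the 15. A second, weaker peak of rank 23076 lay 278 bp upstream. Psmb6 had a signal of 13.6 in replicate 1 (rank 5918) and 25.9 in replicate 2 (rank 14564), so in replicate 1's list it stood near Psmb2 and in replicate 2's far below it. Psmb3, a structural subunit gene, had the weakest of the 15 peaks, with a signal of 24.3, rank 19634 and a summit 38 bp upstream. It had a signal of 21.4 in replicate 2 and no peak in replicate 1.

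The other constitutive catalytic subunit genes had no summit in the optimal list. Psmb7, whose product has the trypsin-like activity, was past the threshold in replicate 2 alone, with a signal of 15.8 there. Psmb5, whose product has the chymotrypsin-like activity, had no promoter peak in either relaxed list. Psmb4, a structural subunit gene, had a signal of 5.50 in replicate 1 and 7.29 in replicate 2 and passed no threshold. The constitutive beta ring genes thus ranged from 1 of the strongest peaks of the gene group to no listed peak.

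The immunoproteasome genes had no promoter summit in the optimal list, where the share over all genes was 22.6%. Psmb8 had a signal of 20.1 in replicate 2 and no peak in replicate 1, and it was past the threshold in replicate 2, at rank 18985. Psmb9 had a signal of 4.58 in replicate 1, close to the lowest listed value, and 15.4 in replicate 2, where it was past the threshold at rank 22116. Psmb10 had a signal of 13 in replicate 2, under the threshold, and no peak in replicate 1. All 3 genes are interferon-induced. The nearest optimal summit to Psmb10 lay 1239 bp from its start site, just outside the 1 kb limit, with rank 7341. The nearest to Psmb8 lay 2829 bp upstream, with rank 13604. Psmb11, which encodes the catalytic subunit of the thymus form, had a signal of 6.44 in replicate 2 and no peak in replicate 1.

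The 19S ATPase genes, whose products form the unfolding ring, had a peak in the optimal list at 3 of 6. The share over all genes was 22.6% in that list. Psmc6 had the strongest of the whole gene group, on chromosome 14 at 45329781 to 45329992, with a signal of 93.8 and a summit 110 bp downstream of the start site, in the first coding exon. It exceeded 95.9% of all promoter peaks in the list. Its signal was 12.3 in replicate 1 (rank 7700) and 81.9 in replicate 2 (rank 1180), and its reproducibility score in replicate 1 was 370, under the threshold of 540. A second peak of rank 23481 lay 313 bp downstream. Psmc4 had a signal of 50.1 and rank 6918, with a summit 75 bp upstream, on chromosome 7 at 28049996 to 28050355. It had a signal of 48.0 in replicate 2 and no peak in replicate 1's relaxed list. Psmc2 had a signal of 32.2 and rank 14023, 56 bp upstream of its start site and only 11 bp from that of Dnajc2, which encodes a ribosome-associated chaperone. It had a signal of 8.75 in replicate 1 and 22.0 in replicate 2.

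The other ATPase genes had listed peaks and no summit in the optimal list. Psmc1 had a signal of 4.81 in replicate 1 and 17.0 in replicate 2, and a peak at its promoter other than the one with the strongest signal was past the threshold in replicate 2, at rank 26266. Psmc5 had a signal of 5.70 in replicate 1 and 19.6 in replicate 2. Psmc3 had a signal of 9.14 in replicate 2 and no peak in replicate 1. All 6 ATPase genes were listed in replicate 2's relaxed list and 4 of them in replicate 1's. The shares over all genes were 66.6% in replicate 2's relaxed list and 28.0% in replicate 1's.

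The non-ATPase genes of the 19S regulator had a summit at 2 of 11 in the optimal list, a share near the 22.6% of all genes. In replicate 2's thresholded list they had one at 6 of 11, where the share over all genes was 27.9%. Psmd12, a lid subunit gene, had a peak of signal 43.8 and rank 8735 on chromosome 11 at 107479336 to 107479695, with its summit 12 bp upstream of an alternative start site and 32 bp downstream of the principal one, in an untranslated exon. Psmd3, another lid subunit gene, had a peak of signal 37.6 and rank 11180 on the same chromosome at 98682276 to 98682635, with its summit 98 bp upstream. Neither had a peak in replicate 1's relaxed list, and their signals in replicate 2 were 38.0 at Psmd12 and 33.5 at Psmd3. Psmd1 and Psmd2, which encode the large scaffold subunits of the base, and the lid genes Psmd7 and Psmd11 were past the threshold in replicate 2 alone. Their signals in replicate 2 were 27.0 at Psmd1, 21.1 at Psmd2, 23.0 at Psmd7 and 21 at Psmd11. In replicate 1 the signals were 5.69 at Psmd1 and 5.70 at Psmd7, and Psmd2 and Psmd11 had no peak.

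The remaining 5 non-ATPase genes passed no threshold and had no peak in replicate 1. Psmd14, the gene of the deubiquitinase of the lid, had a signal of 8.30 in replicate 2, and Psmd4, the gene of a ubiquitin receptor, had 11.9. Psmd13 had a signal of 18 in replicate 2, Psmd8 one of 9.42 and Psmd6 one of 8.16. All 11 genes were listed in replicate 2's relaxed list, where the share over all genes was 66.6%.

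Among the chaperones of the 19S regulator, Psmd9 had a peak of signal 43.9 and rank 8686 on chromosome 5 at 123228076 to 123228435, 66 bp downstream of the start site in an untranslated exon. It had a signal of 9.90 in replicate 1 (rank 15666) and 35.0 in replicate 2 (rank 8819). Psmd5 was past the threshold in replicate 2 alone, with a signal of 15.4 there, and Psmd10, whose product is also called gankyrin, had no listed peak. Among the 4 chaperone genes of the 20S core, Psmg1 had a peak of signal 30 and rank 15478 with its summit 4 bp from the start site, the closest strongest summit of the 15. Psmg3 had one of signal 24.8 and rank 19300 on chromosome 5 at 139826507 to 139826866, 156 bp downstream of the nearest start site and 198 bp downstream of the principal one, with a second peak of rank 23380 lying 7 bp upstream. Neither had a peak in replicate 1, and their signals in replicate 2 were 25.1 at Psmg1 and 25.5 at Psmg3. The summit at Psmg3 lay also within 280 bp of a start site of Gm26938, which has no assigned name in the annotation. Psmg2 had a signal of 8.16 in replicate 1 and 9.97 in replicate 2, and Psmg4 had 12.8 in replicate 2 and no peak in replicate 1.

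Among the alternative activators 1 of 4 genes had a summit in the optimal list, and so did the inhibitor gene. The share over all genes was 22.6% in that list. Psmf1, whose product inhibits the core in vitro, had the third strongest peak of the gene group, on chromosome 2 at 151741211 to 151741570, with a signal of 50.7 and rank 6744. Its summit lay 81 bp upstream of an alternative start site, and with principal start sites alone neither Psmf1 nor Psmb1 had a summit, which left 13 genes. Psmf1 had a signal of 4.88 in replicate 1 (rank 212527) and 45.8 in replicate 2 (rank 5269). It thus stood in the lower part of replicate 1's list and near the top of replicate 2's. Psme3, the gene of the nuclear activator, had a peak of signal 25.8 and rank 18513, 151 bp upstream, with a signal of 20.9 in replicate 2 and no peak in replicate 1. Psme2, an interferon-induced activator gene, was past the threshold in replicate 2 alone, with a signal of 5.21 in replicate 1 and 18 in replicate 2. Its partner Psme1 had a signal of 10.1 in replicate 2 and no peak in replicate 1. Psme4, the gene of the large activator, had a signal of 4.55 in replicate 1 and 9.65 in replicate 2. Psmc3ip had 4.40 in replicate 1 and 6.15 in replicate 2, the lowest signal of any listed member in both lists.

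**Figure D2:**
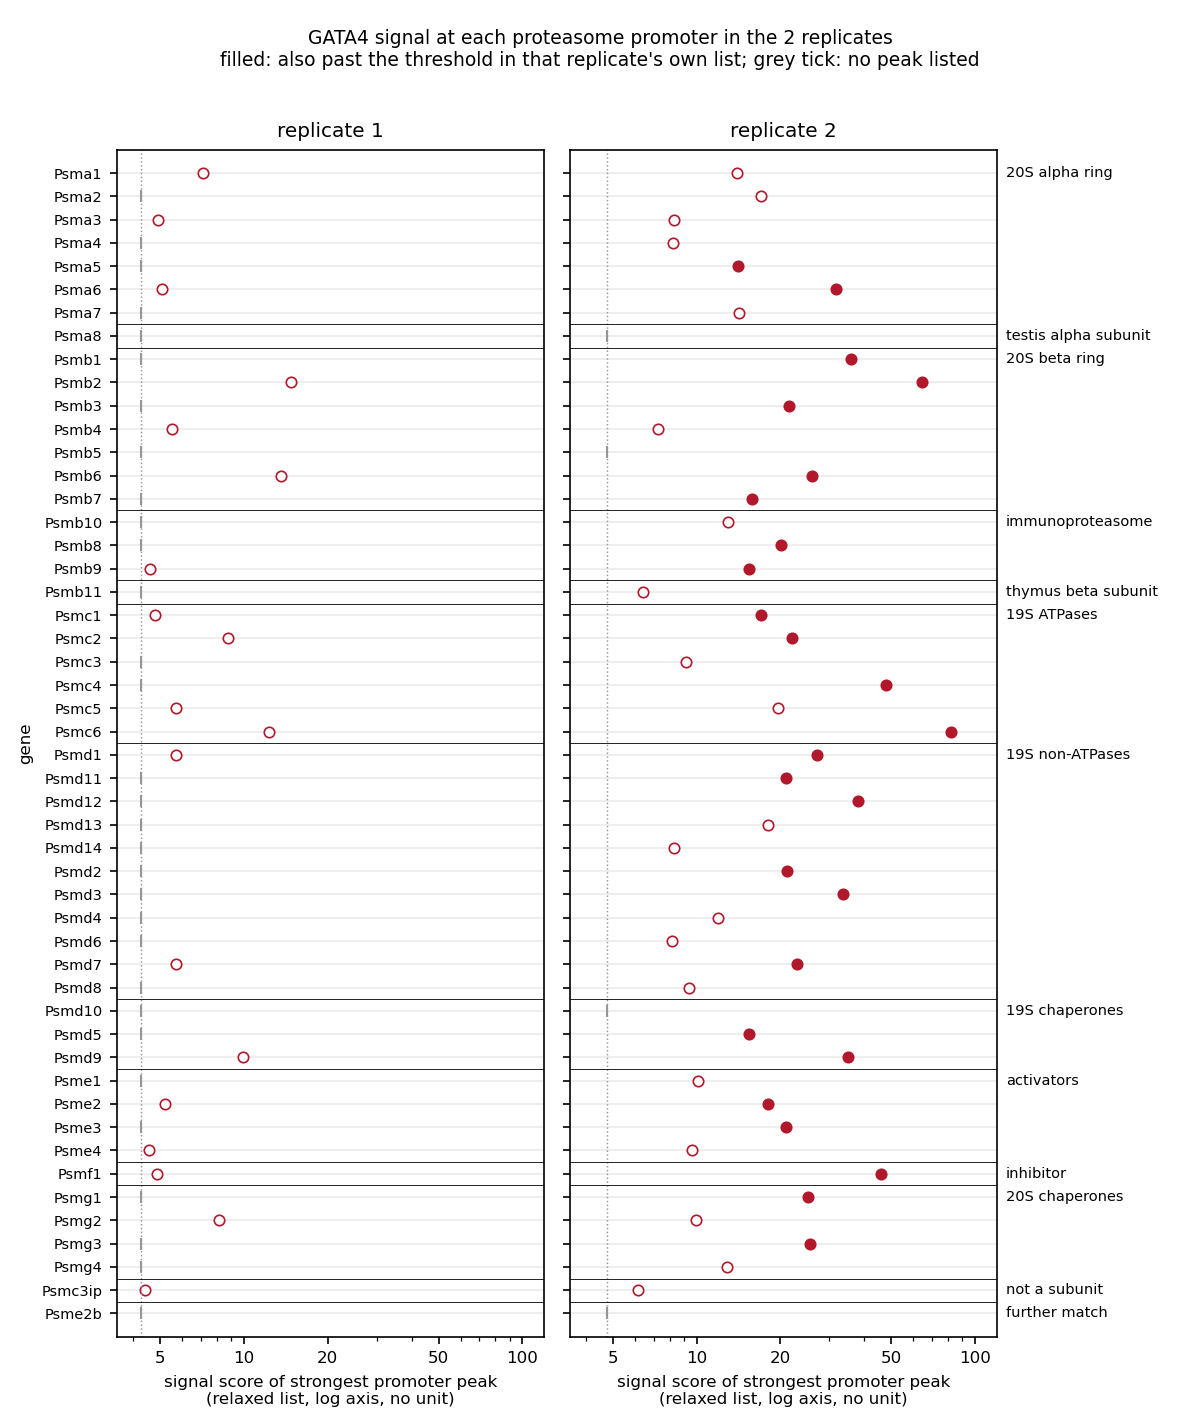
Signal score (x axis, log scale, no unit) of the strongest peak within 1 kb of a start site of each of the 50 proteasome genes (rows, grouped by role) in the relaxed list of replicate 1 (left) and replicate 2 (right). Filled points, all of them in replicate 2, are genes also past the threshold in that replicate's own list from a later run. Grey ticks are genes with no listed peak, and the dotted line is the lowest listed signal.

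The proteasome genes that were listed stood close to the other genes in level. In replicate 1's relaxed list the median signal of the strongest promoter peak was 5.69 over the 19 proteasome genes listed (4.40 to 14.7), against 6.06 over the other genes listed. In replicate 2's relaxed list it was 17.5 over 46 proteasome genes (6.15 to 81.9), against 14.9 over the other genes listed. Placed among all other genes, unlisted ones included, the median proteasome gene of replicate 2's list stood at the percentile 69.9. In replicate 1's list, where most of the 50 were unlisted and tied with the unlisted other genes, it stood at 36.0. In the optimal list the strongest promoter peaks of the 15 members had a median rank of 11180, against 13362 for the 4900 other genes with such a peak. As a percentile among all 5197 promoter peaks, with 100 the strongest, their median was 64.7 (quartiles 48.8 to 77.3), against 55.0 for the other genes. The quartiles of the members overlapped those of the other genes, which were 31.4 and 77.8. In replicate 2's thresholded list the median percentile of the 26 members was 46.2.

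Occupied and unoccupied proteasome promoters differed little in composition. The median GC content was 55.3% at the 15 promoters with an optimal summit and 56.6% at the 35 without, and 56.4% over all 50 (45.4 to 72.8%), against 55.3% at other genes. The median CpG ratio was 0.717 with a summit and 0.696 without, and 0.706 over all 50, against 0.575 at other genes. The gene group thus differed from other genes more in CpG ratio than in GC content, and matching on the CpG ratio gave the smaller gaps in the optimal and in both of replicate 2's lists. GC and CpG were taken at the principal start site, which at Psmb1, Psmd12, Psmf1 and Psmg3 is not the one nearest to the summit. The proteasome genes had a median of 1.00 annotated start site and other genes 2.00, so a summit had fewer start sites to fall near. Matched on GC and on the number of start sites, the gap in the optimal list was 4.04 points, against 3.24 points with GC alone. Replicate 1's relaxed list held 7 of the 15 members with an optimal summit and 12 of the 35 without. In replicate 2's relaxed list 9 of the 15 ranked above every one of the 35, and since replicate 2 entered the optimal list this is a description only.

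The summits lay close to the start sites. The median distance was 77.0 bp at the 15 proteasome promoters (4.00 to 478 bp), against 102 bp at the 4900 other genes. A summit within 200 bp was found at 14 of the 15, which is 93.3%, against 68.3% of the other genes, the exception being Psmb6. The summit lay upstream of the start site at 11 of the 15, which is 73.3%, against 62.3% of the other genes. For these positions the other genes were not matched on composition, no interval was taken, and the differences were not tested. At 3 of the 15, Psmb1, Psmc2 and Psmg3, the summit was also within 1 kb of a start site of another protein-coding gene, and at Psmb1 and Psmc2 it was nearer to that one. Among other genes 20% shared the summit in this way.

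**Figure D3:**
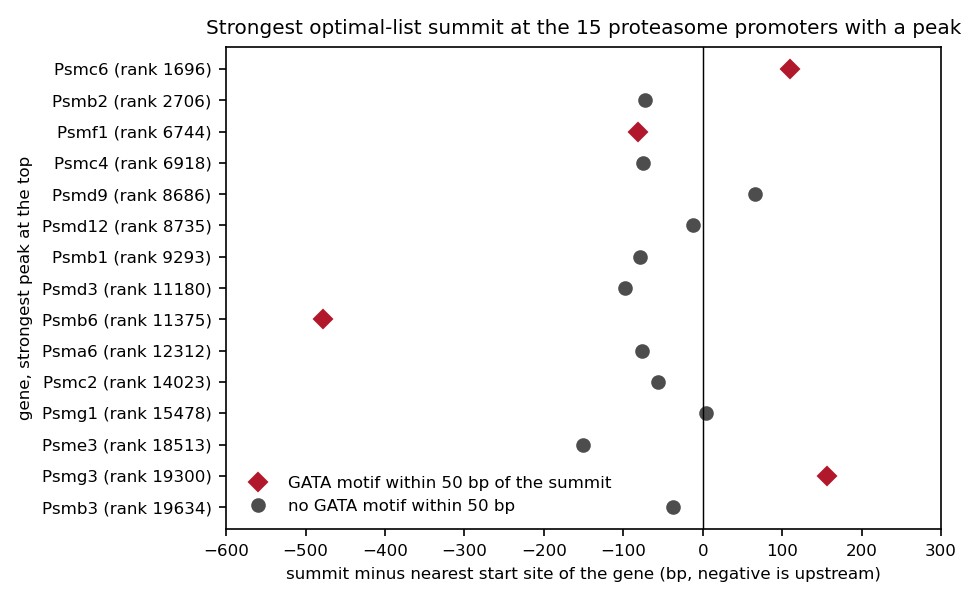
Position of the strongest optimal-list summit relative to the nearest start site of the gene (x axis, bp, negative is upstream) at the 15 proteasome promoters with a peak, ordered by rank with the strongest at the top. Red diamonds mark the 4 summits with a GATA word within 50 bp. They are the farthest upstream, Psmb6 at -478 bp, both of the farthest downstream, Psmg3 and Psmc6, and Psmf1 at -81 bp.

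The share of proteasome summits with the GATA word differed from that of other promoter summits by less than the counting error. WGATAR lay within 50 bp of 4 of the 15 summits, which is 26.7% (10.9 to 52%), against 25.7% of all promoter peaks and 30.6% of other genes' summits of like GC. For this match GC was measured 50 to 100 bp from the summit, so that the motif itself did not enter it. The stricter word AGATAA was at 3 of the 15, which is 20% (7.05 to 45.2%), against 14.8% at like GC. The 4 summits printed above ranked 1696, 6744, 11375 and 19300, so they were spread over the range of signal rather than gathered at the top. The word WTATGC (W is A or T), searched as an unrelated control, was at 1 of the 15.

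The ETS word, GGAA with A or C before it and A or G after it (MGGAAR), is recognised by a family that includes ubiquitous activators. It was within 50 bp of 10 of the 15 summits, which is 66.7% (41.7 to 84.8%), against 42.3% of all promoter peaks and 45.1% at like GC. The matched share lay inside the interval. The stricter word CCGGAA, which overlaps MGGAAR, was at 5 of the 15, which is 33.3% (15.2 to 58.3%), against 16.9% at like GC, again inside the interval. The 5 genes were Psma6, Psmb1, Psmc2, Psmd12 and Psme3. At Psmd12 the nearest CCGGAA lay 1 bp from the summit and at Psma6 it lay 2 bp away. None of these 5 had a WGATAR word within 50 bp.

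The SP word GGGCGG was at 2 of the 15 summits, Psmb1 and Psmc4, which is 13.3% (3.74 to 37.9%), against 30.4% of all promoter peaks and 26.7% at like GC. The CCAAT box, bound by NFY, was at 3 of the 15, Psmb3, Psmb6 and Psmc2, which is 20%, against 16.4% at like GC. The nuclear respiratory factor word GCGCATGC was at Psmg1 alone and the YY1 word AAGATGG at Psmc4 alone. The antioxidant response type element TGACNNNGC was at none of the 15 (0%, interval up to 20.4%), against 5.58% at like GC, so a share like that of other summits was not detectable as a difference. Nor was the overlapping AP-1 word TGASTCA (S is C or G), at none of the 15 against 1.34%. Psmd9 had none of the 11 motifs within 50 bp of its summit.

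Over the whole promoters, 500 bp to each side of the principal start site, the antioxidant response type element was found at 27 of the 50 proteasome genes, which is 54.0%, against 35.5% of other genes of like GC and 33.6% of all other genes. It was present at 8 of the 15 promoters with a GATA4 summit and at 19 of the 35 without. The nearest copies lay 76 bp from the summit at Psmb2, 93 bp at Psmd9, 147 bp at Psmd3, 151 bp at Psmc4 and 161 bp at Psmc6. Thus the element was common in the promoters and lay outside the 50 bp around each summit. The summit windows are shorter, and only 5.58% of matched summits held it, so its absence there is not read as a difference. AAGATGG was found at 20 of the 50 promoters, which is 40.0%, against 19.3% at like GC and 18.5% of all others. CCGGAA was at 32, which is 64.0%, against 42.4% at like GC and 34.5% of all others. TGASTCA was at 13, which is 26.0%, against 11.2% at like GC and 11.9% of all others. A copy of it can also be a copy of TGACNNNGC, since these motifs overlap, and how many copies were shared is not given here.

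The other words were closer to the matched promoters. GGGCGG was at 39 of the 50, which is 78.0%, against 73.4% at like GC and 62.1% of all others. MGGAAR was at 49, which is 98.0%, against 96.3% at like GC and 95.3% of all others, so a word of this kind distinguishes few windows of this length. CCAAT was at 31, which is 62.0%, against 70.2% at like GC and 70.0% of all others, and GCGCATGC at 6, which is 12%, against 6.80% at like GC and 5.30% of all others. WTATGC was at 10, which is 20%, against 26.7% at like GC and 30.8% of all others. WGATAR was at 34, which is 68.0%, against 60.4% at like GC and 62.1% of all others. AGATAA was at 14, which is 28.0%, against 25.2% at like GC and 29.6% of all others. Among the proteasome genes WGATAR was present at 11 of the 15 promoters with a summit and 23 of the 35 without, against 57.5% of other genes with a summit and 63.5% of those without. AGATAA was present at 8 of the 15 promoters with a summit and 6 of the 35 without, against 26.3% of other genes with a summit and 30.6% of those without. A match is a run of letters and was not shown to be bound.

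**Figure D4:**
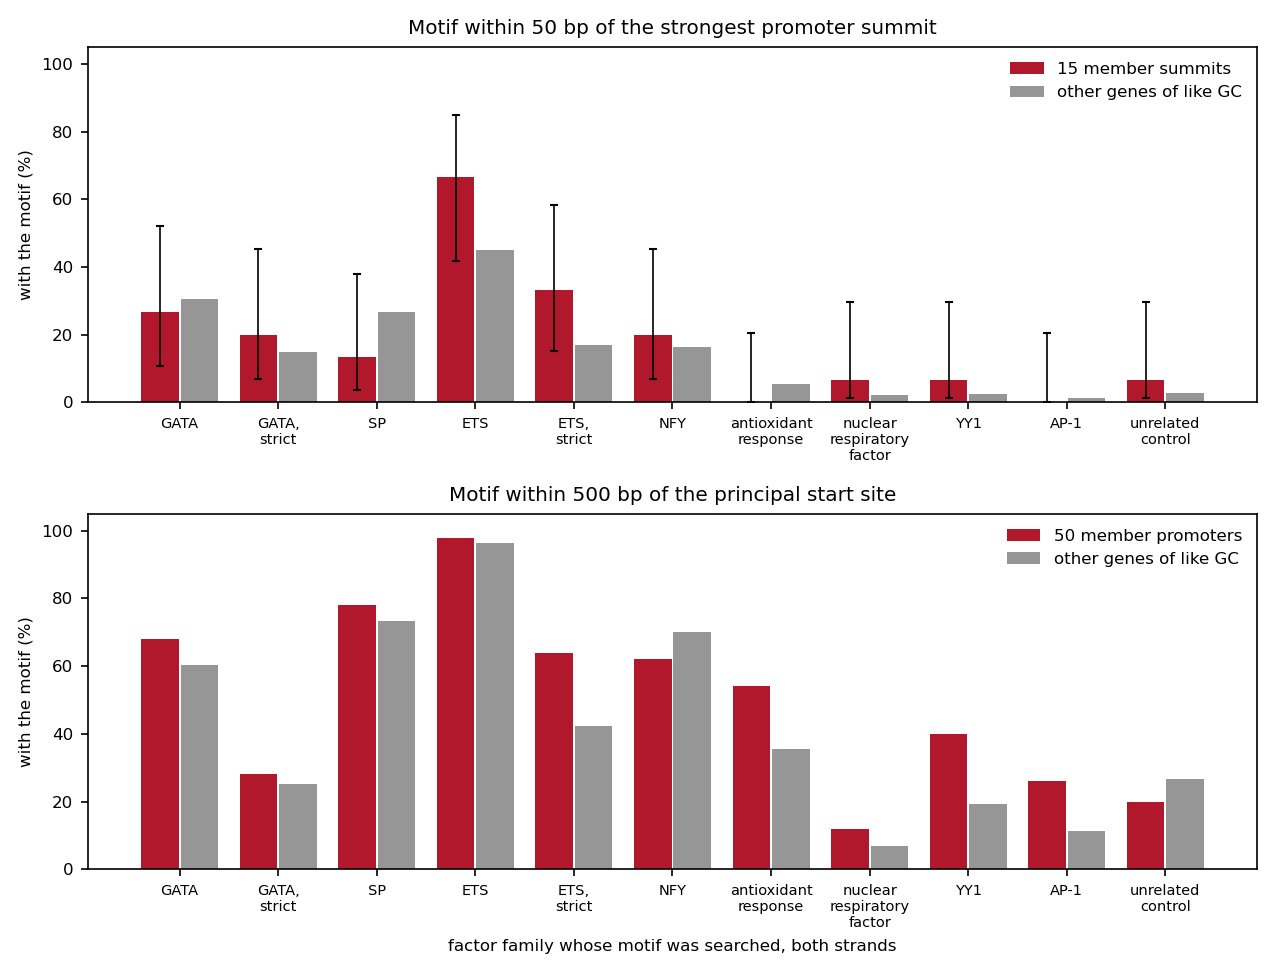
Percentage of windows with each motif (y axis) by the factor family whose word was searched (x axis): above, within 50 bp of the strongest summit at the 15 occupied proteasome promoters (red, with 95% Wilson intervals) and at other genes of like GC (grey); below, within 500 bp of the principal start site of the 50 proteasome genes and of other genes of like GC. The GATA share is 26.7% at proteasome summits and 30.6% at matched summits. The antioxidant response type element is at 0% of proteasome summits against 5.58% of matched summits. In the longer promoter windows it is at 54.0% of proteasome genes against 35.5% of matched genes.

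Genes that act with the proteasome were searched in the same way, as a list of 28 of which 27 were found in the annotation used. It holds ubiquitin genes, shuttle factors, proteasome-associated enzymes and the regulators of proteasome gene expression. The optimal list had a summit at 9 of the 27, which is 33.3%, against 29.5% of other genes of like GC and 38.1% of like CpG ratio. Nfe2l2, the gene of the factor that drives the antioxidant response, had the strongest of these peaks, with rank 1900 in the optimal list and 1846 in the conservative list, and it was the 1 gene of the list in the conservative list. Adrm1, the gene of a ubiquitin receptor of the 19S regulator, followed at rank 6036, and Pomp, the gene of the core's maturation chaperone, at rank 6672. Ube3c, the gene of a proteasome-associated ubiquitin ligase, ranked 10897. Weaker peaks lay at Zfand5 (19181), Usp14 (21941), Vcp (22146) and Rad23b (22979). Nfe2l1, the gene of the factor that raises proteasome genes when activity is low, had a peak in replicate 2's relaxed list alone, at rank 22061. Replicate 1's thresholded list had a summit at none of the 27 and replicate 2's at 17, which is 63.0% (44.2 to 78.5%). Other genes stood at 36.8% at like GC, below the interval, and at 47.6% at like CpG ratio, inside it. The shares over all genes were 4.36% in the conservative list, 1.53% in replicate 1's thresholded list and 27.9% in replicate 2's.

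Other gene groups expressed in every tissue gave the following shares beside the proteasome genes, whose difference from them was not tested. In the optimal list 30% of proteasome promoters had a summit, against 53.4% of 88 ribosomal protein genes (47 genes) and 42.0% of 81 nuclear genes of the respiratory chain (34 genes). Genes of like CpG ratio stood at 30.4% for the proteasome genes, 33.9% for the ribosomal protein genes and 30.6% for the respiratory chain genes. In replicate 2's thresholded list the shares were 52% for the proteasome genes, 60.2% for the ribosomal protein genes and 49.4% for the respiratory chain genes. There the share over all genes was 27.9%, and genes of like CpG ratio stood at 38.0%, 42.0% and 38.2%, in the same order. The conservative list had a summit at 4 of the 50 proteasome genes, 7 of the 88 ribosomal protein genes and 7 of the 81 respiratory chain genes. Replicate 1's thresholded list had a summit at none of the proteasome genes and at 1 gene of each other group, where the share over all genes was 1.53%. The proteasome genes had the lowest of the 3 shares in the optimal list and the middle one in replicate 2's.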

How the data were processed

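Peak lists were the authors' own, on mm10. The score of each peak (IDR score and peak caller's signal score, neither with a unit) was used as deposited by the authors, and the signal score only within 1 list. By its values, the IDR score equals -log2(IDR) times 125, with 1000 as its maximum. Per the file headers and labels, the optimal, conservative and relaxed lists come from an earlier run, with a control file per replicate, and the replicates' thresholded lists from a later one. Which aligner and peak caller made them is not given in the sources used here. Read depth is unknown. Control libraries, 2 lists on mm9 and 2 ranked lists that combine both replicates were not used here; each replicate's own ranked list gave the reproducibility scores under the threshold. In the optimal list 33 peaks on other sequences were left out.

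Summits were set against 41249 start sites of GENCODE basic genes with Python 3.11.15, numpy 2.4.6 and pysam 0.24.0. Matching used bins with at least 20 other genes (GC 5 points, CpG ratio 0.1). Motif search and matching were tested on simulated data. With 1 group, no test was run. The gene group and the lists were chosen with earlier results of these data known. By rule, full values were given for the 10 strongest promoter peaks, those with WGATAR, those in the conservative list, the tissue-restricted members and the members without a summit, and sequences for summits with WGATAR and the 3 strongest without. Some items are not reported here. Alternatives were other distances, start sites, lists, thresholds, matching and motif windows.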

Additional observations from a re-analysis of the deposited data

How the results depend on the processing

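The count of 15 occupied promoters and the gap of 3.24 points to like GC depended mostly on the list. The count was 4 in the conservative list of either run, 2 among the strongest peaks of the optimal list cut to the length of replicate 1's, and 2 among the strongest of replicate 2's list cut likewise, where the gap was -0.373 points. Leaving out 1 replicate by taking the other's own list gave counts of 0 to 26 and gaps of -1.68 to 19 points, with 26 and 19 from replicate 2's list and 0 and -1.68 from replicate 1's. Matching on the CpG ratio gave -0.426 points. With the other 15 alternatives the gap stayed positive, with 0.677 points at principal start sites alone (13 promoters), 0.361 points among the strongest peaks of the optimal list, 10 points in the later pooled list (18 promoters) and 14.0 points in replicate 2's list at like CpG ratio. That last setting and GC at the most upstream start site, 3.62 points, were chosen after seeing the data. The ETS share was 86.7% with windows of 100 bp, 25% in the conservative list and 33.3% for CCGGAA, and the SP share was 0% in the conservative list, each over few summits. The WGATAR share was 40% with windows of 100 bp and 50% in the conservative list (2 of 4), inside the interval of the main share, and between 20% and 26.9% otherwise. The median percentile was 78.6 by the IDR score and 46.2 in replicate 2's list, both outside the quartiles of the main value, and 52 in the later pooled list. Causes were not tested. No paired analysis was possible because the series holds 1 group. Replicate 1's list gave no motif or rank value, since it had no member. The number of summits, 15, limits every motif share, and read depth is unknown.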
